A study of Mus musculus with 6 samples.

Results

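The 10 genes described here encode receptors that recognise apoptotic cells and the secreted proteins that bridge such cells to them. They are the receptor tyrosine kinases Axl, Tyro3 and Mertk, their ligands Gas6 and Pros1, the bridging protein Mfge8, the integrin subunits Itgav, Itgb3 and Itgb5, and the scavenger receptor Scarb1. Members were taken from the deposited count table by exact gene symbol, which found 10 of 53735 features, and all 10 were among the 13092 genes with enough reads to test. The study compared bone marrow stromal cells of wild-type mice that had been fed apoptotic thymocytes with unfed cells, with 3 libraries of 19069074 to 22410047 counts in each group. Per the labels' protocols, lineage- CD45- CD31- CD51+ cells were sorted from marrow, grown in 2% oxygen and used at passage 2 or 3. Fed wells received dye-labelled thymocytes and stayed in 5% oxygen for 24 h, and target-positive cells were then sorted. Control wells received no target and were sorted as well, and the oxygen they were kept in over those 24 h, the age and strain of the mice, and whether libraries came from separate animals are not stated in the labels. The p-values therefore measure only the spread between these libraries, which may be technical, and the fed group holds only cells that had taken up label while the control group was not selected in that way.

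Dying cells expose phosphatidylserine, a lipid that living cells keep on the inner face of the plasma membrane. Phagocytes bind it directly through scavenger receptors such as SR-BI, the product of Scarb1, or through bridging proteins. Gas6 and protein S, the product of Pros1, bind the lipid through a domain that needs vitamin K-dependent carboxylation and activate the receptors Tyro3, Axl and Mertk, known together as TAM receptors. Milk fat globule-EGF factor 8, the product of Mfge8, bridges the lipid to integrins made of the αv subunit (Itgav) with β3 (Itgb3) or β5 (Itgb5). Stromal cells of the marrow are not professional phagocytes but can engulf dead cells.

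In fed cells sorted as target-positive, 3 receptors were higher than in control cells (Axl, Tyro3 and Scarb1), and a bridging ligand and an integrin subunit were lower (Pros1 and Itgb5). Levels are counts per 1000000 counts (CPM), scaled between libraries by the trimmed mean of M values. Calls of a change rest on edgeR's quasi-likelihood test, with p adjusted by Benjamini and Hochberg's method and a limit of 0.05. Of the 10 members, 3 were called higher, where 20.5% of all genes tested were, and 2 lower, where 19.0% were. The share called in either direction was 39.5% over all genes tested. The median log2 fold change of the members was -0.04, against -0.01 over all genes tested. All called members changed by less than 1.5-fold, of which Itgb5 fell by 26.25% and Scarb1 rose by 32.0%. For these 5 genes the fed and control libraries did not overlap, as for 49.1% of all genes tested, and for the other 5 they did.

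**Figure D1:**
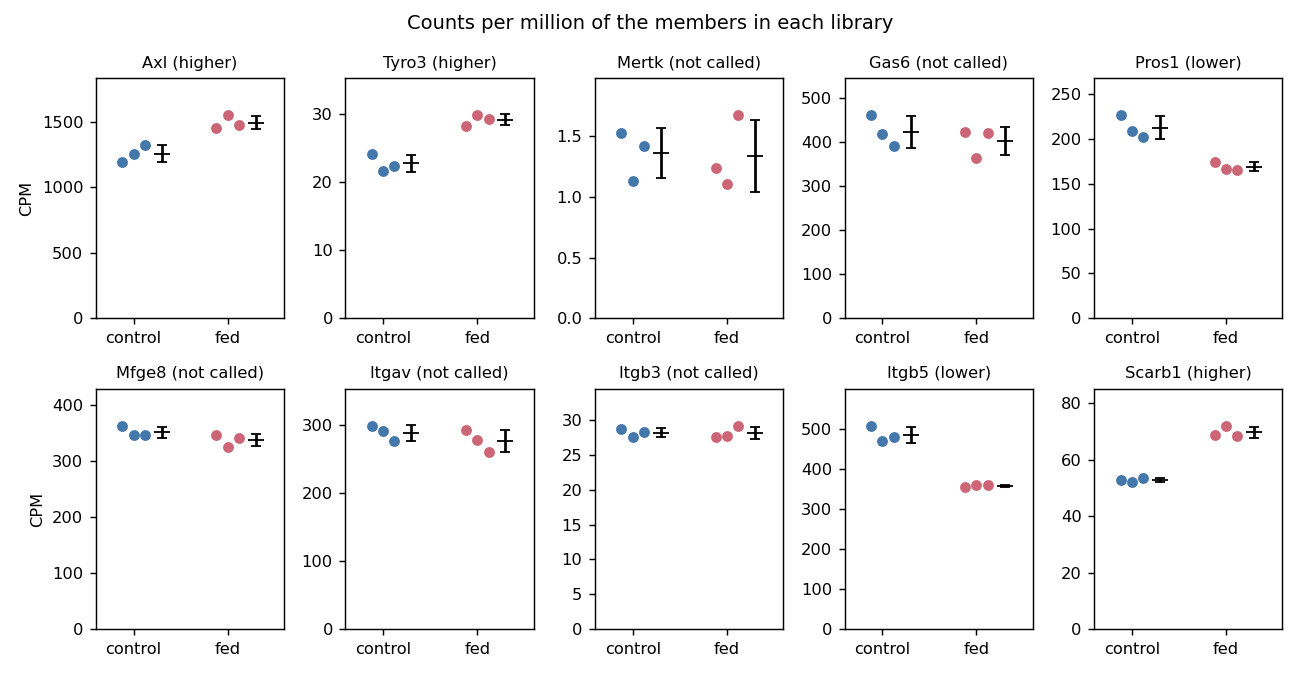
CPM of each member in the 3 control (blue) and 3 fed (red) libraries, with the group mean and SD as a black bar and the call of edgeR's test in each title. The libraries of Axl, Tyro3, Scarb1, Pros1 and Itgb5 fall into separate ranges by group, and those of the other 5 members overlap.

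RefSeq promoter sequences on build GRCm38.p6, from 250 bases before to 50 after the start of transcription, matched 8 of the 10 members. Scarb1 and Itgb3 had no entry. The start used for Tyro3 lies inside the gene, which begins upstream at 119797733 in GENCODE M21. The 4 called members with an entry are printed below, since they moved in both directions in the same cells. Capitals mark GC boxes, the letters GGGCGG on either strand, which are bound by Sp1 and related factors.
Axl (chr7:25788684-25788983, minus strand): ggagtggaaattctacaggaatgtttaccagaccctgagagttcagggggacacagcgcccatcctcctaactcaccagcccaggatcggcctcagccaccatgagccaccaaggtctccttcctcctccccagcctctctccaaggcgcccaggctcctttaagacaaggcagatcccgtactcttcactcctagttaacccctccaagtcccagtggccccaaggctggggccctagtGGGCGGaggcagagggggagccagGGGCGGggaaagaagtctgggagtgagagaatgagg
Tyro3 (chr2:119799264-119799563, plus strand): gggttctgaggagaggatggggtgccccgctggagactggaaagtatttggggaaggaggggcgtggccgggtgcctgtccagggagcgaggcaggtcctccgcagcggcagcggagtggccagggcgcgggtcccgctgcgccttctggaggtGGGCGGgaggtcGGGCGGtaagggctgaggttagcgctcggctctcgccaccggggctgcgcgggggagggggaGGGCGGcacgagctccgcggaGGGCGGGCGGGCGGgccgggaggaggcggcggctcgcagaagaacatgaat
Pros1 (chr16:62854057-62854356, plus strand): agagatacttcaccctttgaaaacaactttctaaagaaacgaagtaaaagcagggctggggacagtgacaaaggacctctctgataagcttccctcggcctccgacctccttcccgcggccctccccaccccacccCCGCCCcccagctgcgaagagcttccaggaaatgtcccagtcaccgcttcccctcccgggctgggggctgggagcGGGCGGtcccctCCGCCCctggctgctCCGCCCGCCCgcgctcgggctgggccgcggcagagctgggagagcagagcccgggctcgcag
Itgb5 (chr16:33829415-33829714, plus strand): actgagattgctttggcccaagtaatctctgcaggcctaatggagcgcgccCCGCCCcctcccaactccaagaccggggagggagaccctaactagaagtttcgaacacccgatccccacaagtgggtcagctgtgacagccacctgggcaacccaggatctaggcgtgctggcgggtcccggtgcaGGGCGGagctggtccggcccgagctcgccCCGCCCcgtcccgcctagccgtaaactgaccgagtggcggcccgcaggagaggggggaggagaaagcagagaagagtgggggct
All 8 member promoters held a GC box, called or not, against 35.7% of the 32851 promoters in the table, which also holds genes that were not tested here. There were 2 such sites in Axl, 6 in Tyro3, 5 in Pros1 and 3 in Itgb5, with overlapping sites counted separately. None of the 8 held an AP-1 site (TGANTCA, in 7.81% of promoters), an E-box (CACGTG, in 7.15%), a TATA box (TATAAA, in 13.6%) or the spaced repeat bound by liver X receptors (in 0.0152%). Both strands were searched for each motif. GC content was 60.3% for Axl, 73.3% for Tyro3, 66.7% for Pros1 and 65.7% for Itgb5, where the median promoter had 52.7%. All 8 member promoters lay above that median, the lowest being Gas6 at 58.3%. The share with a GC box among promoters of like GC content was not tested. The motifs were chosen after the values were seen, the matches describe letters in a window, and no binding was measured.

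Axl was the most abundant member and the dominant TAM receptor of these cells. The gene (chromosome 7, 25757273 to 25788705, build GRCm38) had 1193, 1256 and 1325 CPM in control replicates 1 to 3 and 1458, 1554 and 1477 in fed replicates 1 to 3. Every fed library lay above every control library. The mean rose from 1258 ± 66.2 to 1496 ± 50.4 CPM (SD, n = 3), or by 0.25 ± 0.043 (SE) on the log2 scale, with an adjusted p of 9.06e-05 in edgeR's quasi-likelihood test. Each value rests on 25156 to 33784 counts per library.

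Tyro3, the TAM receptor best known from the nervous system, rose as well but from a far lower level. This gene (chromosome 2, 119797733 to 119818104) had 24.1, 21.7 and 22.4 CPM in control libraries and 28.3, 29.8 and 29.3 in fed libraries. The groups did not overlap, and Tyro3 rose by 0.36 ± 0.061 (SE) on the log2 scale, with an adjusted p of 8.9e-05. Mertk, the TAM receptor that macrophages use for engulfment (chromosome 2, 128698956 to 128802894), was near the limit of detection. Its libraries held 33, 24 and 27 counts in control and 25, 24 and 38 in fed cells, or 1.10 to 1.67 CPM over all 6. The groups overlapped, with a log2 fold change of -0.02 ± 0.24 (adjusted p = 0.96). At this depth the 95% interval of Mertk ran from -0.51 to 0.47, so a change as large as that of Axl or Tyro3 was not detectable for it.

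The receptors were compared with each other as CPM per kilobase of exonic length in GENCODE M21, since longer transcripts collect more reads. On this scale Axl made up 98.4% ± 0.16 (SD, n = 3) of the summed level of the TAM receptors in control and 98.3% ± 0.048 in fed cells. Tyro3 made up 1.45% ± 0.14 and 1.55% ± 0.024, and Mertk 0.124% ± 0.022 and 0.103% ± 0.025. The shares of all 3 overlapped between the groups. The ratio of Axl to Tyro3 counts within a library, which does not depend on scaling between libraries, was 49.4 to 59.2 in control and 50.5 to 52.1 in fed cells. The difference of this ratio was -0.11 on the log2 scale (exact two-sided permutation test, p = 0.4, adjusted p = 0.48 over 6 ratios), and was -0.19 without control replicate 1 and -0.06 without control replicate 3.

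Of the TAM ligands, Pros1 fell and Gas6 was not called. Pros1 encodes protein S, also known as an anticoagulant cofactor (chromosome 16, 62854307 to 62929346). It had 227, 208.7 and 202.6 CPM in control and 174.8, 166.5 and 166 in fed libraries, so that all fed libraries were lower. The mean fell from 212.7 ± 12.7 to 169.1 ± 4.95 CPM. Its log2 fold change was -0.33 ± 0.043 (SE), with an adjusted p of 3.53e-06. Gas6 (chromosome 8, 13465374 to 13494490) had 462.4, 418.8 and 391.4 CPM in control and 422.7, 365.6 and 420.7 in fed libraries. The groups overlapped. The log2 fold change of Gas6 was -0.07 ± 0.077 (adjusted p = 0.494), with a 95% interval from -0.26 to 0.11.

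Gas6 was the more abundant of the ligands in both groups, with 76.2% ± 0.50 of the summed level per kilobase in control and 79.2% ± 1.21 in fed cells. The ratio of Gas6 to Pros1 counts was 2.04, 2.01 and 1.93 in control and 2.42, 2.20 and 2.53 in fed libraries, and these ranges did not overlap. Its difference was 0.26 on the log2 scale (exact two-sided permutation test, p = 0.1, the smallest that 3 against 3 libraries can give, adjusted p = 0.15). Gas6 set against its receptor Axl went the other way, with ratios of 0.388, 0.333 and 0.295 in control and 0.290, 0.235 and 0.285 in fed libraries. That difference was -0.32 (exact permutation p = 0.1, adjusted p = 0.15). The highest fed ratio, 0.290, lay just under the lowest control ratio, 0.295.

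**Figure D2:**
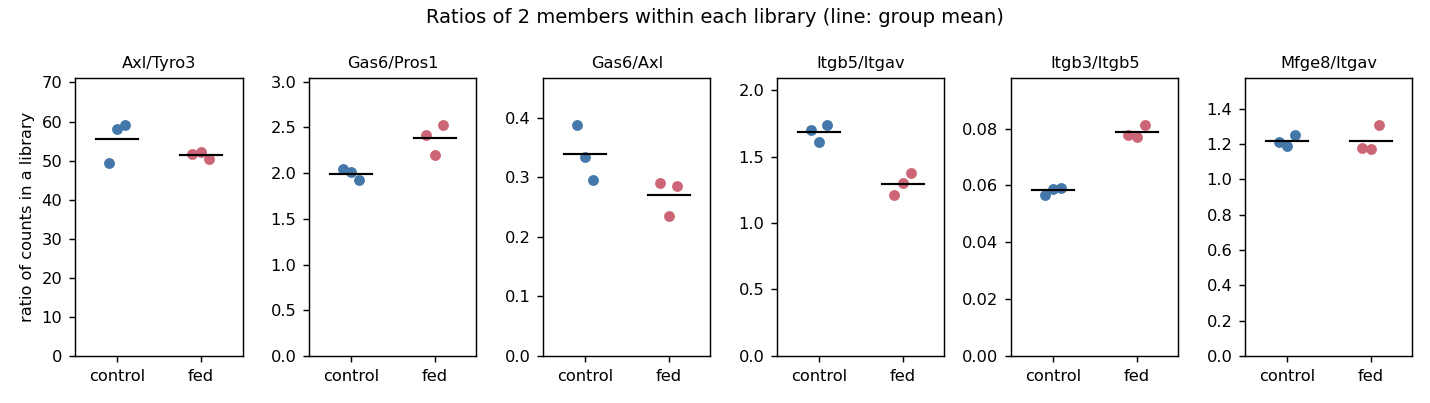
Ratio of the counts of 2 members within each library, for 3 control (blue) and 3 fed (red) libraries, with the group mean as a line and each axis starting at 0. The ranges of Gas6/Pros1, Gas6/Axl, Itgb5/Itgav and Itgb3/Itgb5 do not overlap between the groups, while Axl/Tyro3 and Mfge8/Itgav overlap.

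Mfge8 and Itgav, a bridging protein and the integrin subunit it binds, were both expressed and neither was called. Mfge8 (chromosome 7, 79133768 to 79149060) had 362.8, 345.4 and 345.5 CPM in control and 346, 324.2 and 341.7 in fed libraries. The groups overlapped, and the log2 fold change was -0.06 ± 0.038 (adjusted p = 0.236, 95% interval from -0.14 to 0.02). Itgav (chromosome 2, 83724397 to 83806916) encodes CD51, the surface marker by which the cells of both groups had been sorted from marrow before culture. It had 299, 291 and 276.2 CPM in control and 292.6, 277.6 and 259.8 in fed libraries, which overlapped, with a log2 fold change of -0.06 ± 0.044 (adjusted p = 0.275, 95% interval from -0.15 to 0.03). The ratio of Mfge8 to Itgav was 1.19 to 1.25 in control and 1.17 to 1.31 in fed libraries, a difference of 0.0041 on the log2 scale (exact two-sided permutation test, p = 1). Its sign turned when control replicate 2 or fed replicate 3 was left out.

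The partners of αv behaved differently from each other. Itgb5 (chromosome 16, 33829665 to 33949338) had 507.9, 468.7 and 479.9 CPM in control and 354.9, 360.2 and 359.2 in fed libraries. All 3 fed libraries lay below the lowest control library. The mean fell from 485.5 ± 20.2 to 358.1 ± 2.83 CPM. The log2 fold change of Itgb5 was -0.44 ± 0.038 (SE), with an adjusted p of 1.73e-08, and 6.63% of all genes tested had a log2 fold change as low or lower. Itgb3 (chromosome 11, 104608000 to 104670476), known from platelets and osteoclasts, was far lower, with 28.8, 27.6 and 28.4 CPM in control and 27.6, 27.7 and 29.3 in fed libraries. It was not called (log2 fold change -0.003 ± 0.056, adjusted p = 0.972), and its 95% interval of -0.12 to 0.11 does not reach the change of Itgb5.

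The ratio of Itgb5 to Itgav within a library was 1.70, 1.61 and 1.74 in control and 1.21, 1.30 and 1.38 in fed cells. It differed by -0.38 on the log2 scale, without overlap (exact permutation p = 0.1, adjusted p = 0.15). The ratio of Itgb3 to Itgb5 was 0.0567 to 0.0592 in control and 0.0770 to 0.0814 in fed cells, a difference of 0.43 (exact permutation p = 0.1, adjusted p = 0.15). Among the β subunits that can pair with αv, Itgb1 held the largest share of the summed level per kilobase, with 75.0% ± 0.65 in control and 79.2% ± 0.24 in fed cells. Itgb5 held 24.1% ± 0.65 and 19.9% ± 0.21, Itgb3 0.846% ± 0.0096 and 0.941% ± 0.036, and Itgb8 0.0467% ± 0.0026 and 0.0299% ± 0.0076. Itgb1 itself was not called (log2 fold change -0.08, adjusted p = 0.0983), and shares of a set move together since they sum to the whole. Itgb1 also pairs with many other α subunits, so its share is not that of αvβ1.

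Scarb1 (chromosome 5, 125277087 to 125341094) encodes SR-BI, which takes up cholesterol from high-density lipoprotein and binds phosphatidylserine. It had 53.0, 52.1 and 53.5 CPM in control and 68.9, 72.1 and 68.4 in fed libraries. All fed libraries were higher than all control libraries. The mean rose from 52.9 ± 0.67 to 69.8 ± 2.00 CPM, or by 0.40 ± 0.043 (SE) on the log2 scale with an adjusted p of 2.91e-07. The 95% intervals of Scarb1, from 0.31 to 0.49, and of Tyro3, from 0.23 to 0.48, overlapped. Over all genes tested, 92.2% had a log2 fold change at or below that of Scarb1.

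**Figure D3:**
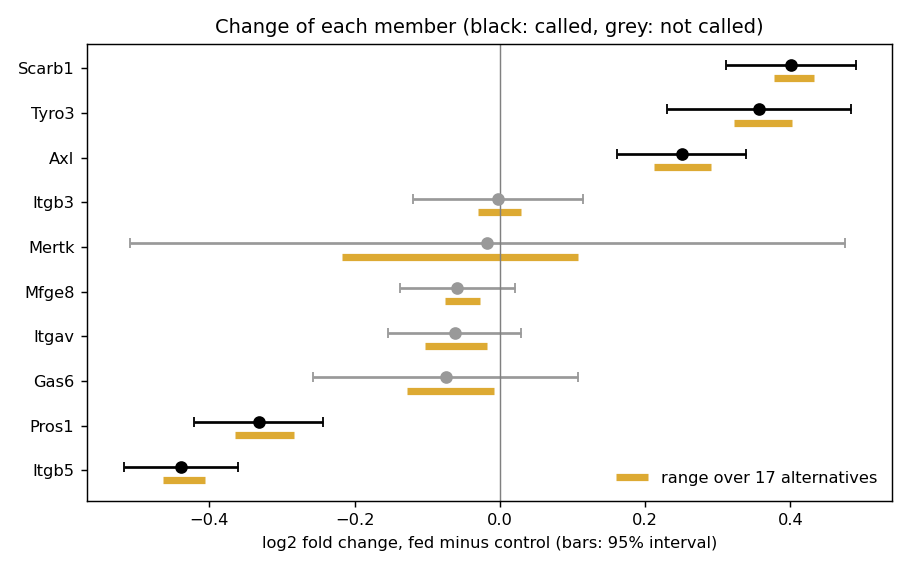
Log2 fold change of each member, fed minus control, with its 95% interval (black where called, grey where not), and in yellow the range of the estimate over 17 alternative settings. The estimates of Scarb1, Tyro3, Axl, Pros1 and Itgb5 stay on their own side of 0 under these settings, and the interval of Mertk, from -0.51 to 0.47, is the widest of the 10.

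Per kilobase of exonic length, the order of the members in control cells ran from Axl at 250 ± 13.1 CPM per kilobase (SD, n = 3) through Gas6 at 167 ± 14.1, Itgb5 at 137 ± 5.68, Mfge8 at 74.8 ± 2.13, Pros1 at 52.1 ± 3.11 and Itgav at 26.9 ± 1.08. A lower group followed, with Scarb1 at 6.22 ± 0.078, Itgb3 at 4.79 ± 0.11 and Tyro3 at 3.67 ± 0.20, and Mertk came last at 0.314 ± 0.047. No neighbours in this order overlapped in their control libraries. In fed cells the order was the same, but Tyro3 at 4.56 to 4.81 overlapped Itgb3 at 4.68 to 4.96 CPM per kilobase. Axl ranked 131 in control and 108 in fed cells among 11830 tested genes with a known length, and Mertk ranked 11111 and 11055. Itgb5 went from rank 275 to 376 and Scarb1 from 5487 to 4623. The length used joins the exons of all annotated isoforms, so a gene whose main isoform is short is placed too low.

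**Figure D4:**
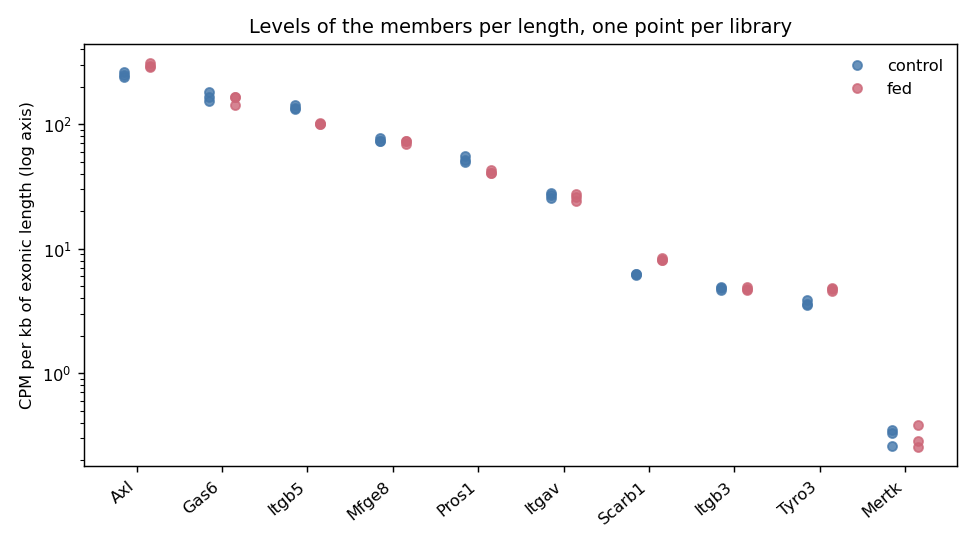
CPM per kilobase of exonic length for each member on a log axis, with 1 point per library for 3 control (blue) and 3 fed (red) libraries, ordered by the control mean. The members run from Axl at 250 to Mertk at 0.314 in control cells, and only Tyro3 and Itgb3 in fed cells share a level.

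Other genes of the same process were read from 7 lists. Of 19 other apoptotic-cell receptors only 6 could be tested, and 1 rose and 1 fell, beside 20.5% and 19.0% of all genes tested. Olr1, the lectin-like receptor for oxidised LDL, fell by 0.79 on the log2 scale from 2.18 to 3.02 CPM in control to 1.33 to 1.59 CPM in fed libraries (adjusted p = 0.00269). Cd14 was called higher by 0.32 (adjusted p = 0.049), a call that was lost when any 1 library was left out (adjusted p from 0.0502 to 0.223) and by DESeq2 (0.166). The list then held 0 higher genes without fed replicate 1 or fed replicate 3, and Cd36 as its 1 higher gene without any of the other libraries. Cd36 enters those fits only through the fed libraries, where it is high, so its call there is no support. Lrp1, a large endocytic receptor, was the most abundant at 2990 to 3770 CPM in control and 2840 to 3340 in fed libraries and was not called (adjusted p = 0.247). It was called lower without control replicate 3, which brought the count of lower genes to 2. The engulfment receptor Megf10 was at 14.5 to 17.6 and 16.4 to 17.6 CPM and was not called.

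Several receptors and opsonins of professional phagocytes were at a few counts and were higher in the fed libraries. Msr1 had 0 counts in each control library and 9, 4 and 9 in fed replicates 1 to 3. The complement components C1qa, C1qb and C1qc had 0 counts in control and 18, 12 and 25 in the fed group as a whole. Cd36 had 3 counts in control against 26, and Itgb2 7 against 25. These genes did not pass the filter on low counts. With no such filter, edgeR's test called these 6 genes higher (adjusted p from 5.49e-06 for C1qc to 0.0301 for Itgb2). This took the higher genes of the receptor list from 1 to 3 and those of the bridging list from 2 to 5. The 6 genes were named after their counts were seen, so these calls are no support. The 3 of the receptor list were Msr1, Cd36 and Itgb2, while the call of Cd14 was lost (adjusted p = 0.0683). Other genes of these lists at a few counts went both ways. Cd300lb had 2 counts in control and 12 in the fed group. Stab1 was at 0.263 to 0.417 CPM in control and 0.496 to 0.644 in fed libraries, and was not called by edgeR's test (adjusted p = 0.126). Ager was at 0.331 to 0.695 CPM in control and 0.22 to 0.414 in fed libraries, and Tulp1 at 0.105 to 0.425 and 0.0881 to 0.198. Cd300lf had 0 counts in all libraries. The macrophage marker Adgre1 moved with the 6 genes, with 0 counts in control and 11 in the fed group. The thymocyte gene Rag1 had 3 and 25 counts. Lck, the only thymocyte marker that could be tested, was at 0.371 to 0.79 CPM in control and 0.184 to 0.529 in fed libraries. It was not called by edgeR's test (log2 fold change -0.62, adjusted p = 0.269). The part of such cells in the members' values was not tested. Summed over 10 macrophage markers the level was 14.1 to 15.3 CPM in control and 19.9 to 21.4 in fed libraries, most of it Lyz2, Csf1r and Cd14, and Fcgr1 had 0 counts in all 6. Of these markers 4 could be tested, and 2 rose and 0 fell by edgeR, also at an unadjusted p under 0.05. Over all genes tested, 20.5% were called higher and 19.0% lower. Lyz2, lysozyme of macrophages and neutrophils, rose from 2.88 to 4.08 CPM in control to 6.64 to 8.37 in fed libraries. Its log2 fold change of 1.17 (adjusted p = 1.61e-06) was larger than that of any member. The other marker called higher was Cd14, whose call was lost when any 1 library was left out, and by DESeq2 and limma-voom. Csf1r (log2 fold change -0.09, adjusted p = 0.596) and Cd68 (0.18, adjusted p = 0.628) were tested and not called. Summed over 11 thymocyte markers the level was 0.417 to 0.895 CPM in control and 0.644 to 1.45 in fed libraries, with Cd3g and Ptcra at 0 throughout. Most of the control level was Lck. Cd8b1 had 0 counts in control and 7 in the fed group. Themis was at 0.0463 to 0.0527 CPM in control and 0 to 0.044 in fed libraries.

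All 10 stromal markers were detected and could be tested, with a summed level of 36400 to 37800 CPM in control and 31800 to 33800 in fed libraries. Of these 10, 7 were called lower in fed cells, where 19.0% of all genes tested were, among them Pdgfra, Pdgfrb and Thy1 with log2 fold changes of -0.31, -0.29 and -0.38. In bulk libraries, fewer cells of a type and less RNA per cell cannot be told apart. Endothelial markers summed to 5.79 to 6.11 CPM in control and 4.05 to 5.40 in fed libraries, and 4 of the 8 had no counts at all (Cdh5, Emcn, Cldn5 and Tie1). Only 2 could be tested by edgeR. Vwf, at 30 to 64 counts per library, was called lower (log2 fold change -0.72, adjusted p = 0.00702). Tek was not called (-0.06, adjusted p = 0.799).

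Of 17 other bridging molecules and opsonins, 8 could be tested, and 2 rose and 3 fell, beside 20.5% and 19.0% of all genes tested. Ptx3, a secreted pentraxin, fell from 1230 to 1310 CPM in control to 910 to 943 in fed libraries (log2 fold change -0.45, adjusted p = 1.34e-08). Edil3, which like Mfge8 links phosphatidylserine to integrins, fell by 0.25 (adjusted p = 0.00204). Thbs1, thrombospondin 1, fell by 0.17. Calr, calreticulin, rose by 0.24 (adjusted p = 2.95e-05), and Anxa1, annexin A1, by 0.14.

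The partners and ligands of αv went both ways, with 2 of 10 tested higher and 2 lower. These counts are near the 20.5% higher and 19.0% lower over all genes tested. Postn, periostin, rose from 263 to 296 CPM in control to 381 to 437 in fed libraries (log2 fold change 0.51, adjusted p = 2.12e-05). Tnc, tenascin C, rose by 0.16. Its adjusted p went to 0.106 when fed replicate 1 was left out, to 0.0746 for control replicate 2 and to 0.0698 for control replicate 3, which each leave 1 higher gene. Fn1, fibronectin, fell by 0.36 (adjusted p = 0.0104) from a very high level, and Itgb8 fell by 0.80 from 2.78 to 3.00 CPM in control to 1.19 to 2.02 CPM.

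Of 7 genes of TAM ligand carboxylation and receptor shedding, 5 were called lower and 1 higher, beside 19.0% lower and 20.5% higher over all genes tested. The median log2 fold change of the list was -0.12, against -0.01 over all genes tested. Adam17 and Adam10, the proteases that shed TAM receptors from the surface, fell by 0.29 and 0.21 (adjusted p = 1.04e-05 and 0.000204). Ggcx, the carboxylase that acts on Gas6 and protein S, fell by 0.20 (adjusted p = 0.00125), and Vkorc1l1, which recycles vitamin K, rose by 0.24 (adjusted p = 0.000182). The others lower were Furin by 0.12 and Calu by 0.10. Leaving out fed replicate 2, fed replicate 3 or control replicate 2 reduced the 5 lower genes to 3, as did library totals in place of the scaling.

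Of 19 tested genes of engulfment signalling, 2 rose and 6 fell, beside 20.5% and 19.0% of all genes tested. The median log2 fold change of the list was -0.03. The adaptor Gulp1 fell by 0.26 on the log2 scale (adjusted p = 0.00306) and the kinase Rock1 by 0.21 (adjusted p = 0.00355). Bcar1, the p130Cas adaptor, rose by 0.28 (adjusted p = 8.55e-06). Leaving out control replicate 3 gave 4 higher genes, and leaving out any other library but fed replicate 1 gave 1. Rac1, the GTPase that drives the engulfment cup, was not called, with a log2 fold change of 0.04 (adjusted p = 0.444).

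Among 9 tested scramblases and flippases, which set the side of the membrane that phosphatidylserine faces, 2 rose and 0 fell by edgeR. Over all genes tested, 20.5% were called higher and 19.0% lower. By DESeq2 or limma-voom 0 of this list fell, but 1 fell with upper-quartile normalization and 1 with the replicate block. At an unadjusted p under 0.05, 2 were higher and 1 lower. Plscr1 rose by 0.33 (adjusted p = 0.0108), but not without fed replicate 2 (0.0825), and Ano6 by 0.09 (adjusted p = 0.0355), a call lost when any 1 library was left out (adjusted p from 0.0526 to 0.123). The number higher was therefore 0 without fed replicate 2 and 1 without any other library. In the CD36 family and the handling of HDL cholesterol, 2 of 5 tested genes fell and 0 rose by edgeR. The shares over all genes tested were 19.0% lower and 20.5% higher. The counts of this list were the same at an unadjusted p under 0.05 and by DESeq2 or limma-voom. Scarb2, a lysosomal relative of Scarb1, fell by 0.25 (adjusted p = 8.08e-05) and the cholesterol exporter Abca1 by 0.44 (adjusted p = 0.00048), while Scarb1 itself rose. With the replicate block 1 gene other than Cd36 was called higher, since Cd36 did not pass the filter of that fit. With no filter on low counts 2 genes were higher. Leaving out control replicate 2, control replicate 3 or fed replicate 2 also gave 1, and control replicate 1 gave 2. The counts with no filter and with a library left out each hold Cd36. With a library left out, Cd36 passes the filter only through the fed libraries. It was also named after its counts were seen, so its calls are no support. The other higher gene with no filter or without control replicate 1 was not Cd36, nor was the 1 of the replicate block.

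**Figure D5:**
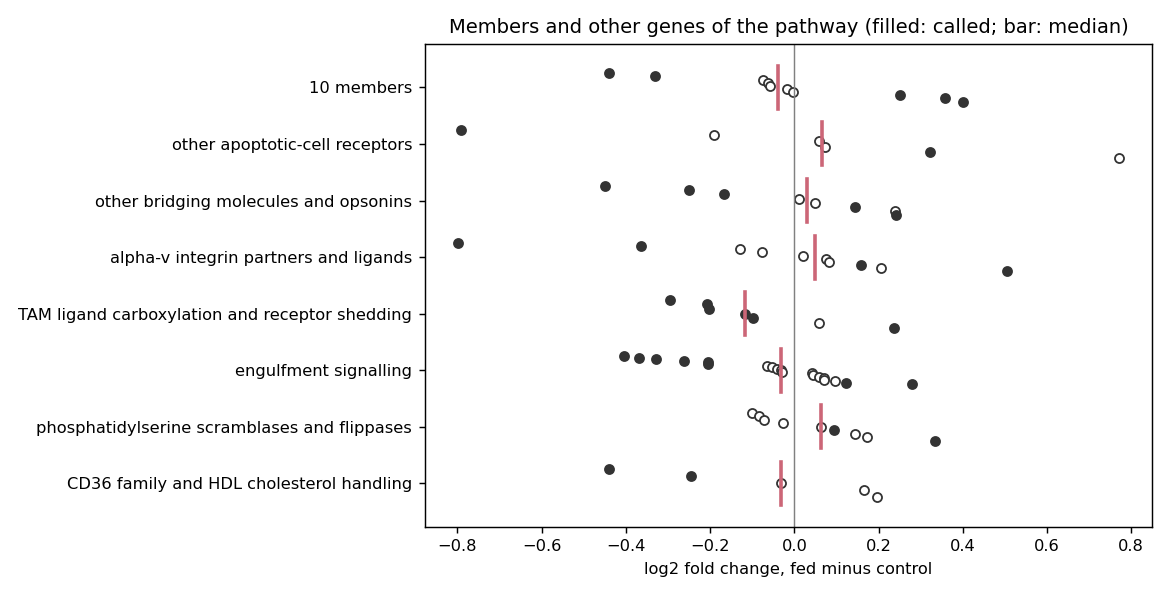
Log2 fold change, fed minus control, of each tested gene of the 10 members and of 7 lists of the same process, filled where called by edgeR's test, with the median of each list as a red bar. Each list lies on both sides of 0, with medians between -0.12 for carboxylation and shedding and 0.07 for the other receptors.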

How the data were processed

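The authors deposited raw counts per gene symbol, whole numbers with totals of 19069074 to 22410047 per library. Per the submitters' processing notes, the tools named are STAR 2.6.0c, Trimmomatic 0.36, MultiQC 1.5 and Subread 1.6.1 (featureCounts), and the build is GRCm38. Which annotation and strand setting served for counting, and how multi-mapping reads were handled, is not given in the sources used here. In GENCODE M21 the exons of Gas6 overlap an opposite-strand gene over 34 bases and those of Itgav over 634 bases (5.9%), so reads there may be shared. The table held 27 names that read as dates, with 0.227% of counts, which were kept in totals.

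Counts were analysed over all genes in R 4.3.3 with edgeR 4.0.16 (filterByExpr, TMM, quasi-likelihood F-test with robust estimation, no replicate block), with limma 3.58.1 and DESeq2 1.42.0 as alternatives. The fit was run on simulated counts with known changes, a check that required only the largest to be found, with few false calls. Small changes in members that were not called may have been missed. Standard errors and 95% intervals come from the F statistic. Replicate libraries differed by more than counting noise. Ratios within libraries were compared by exact permutation. Members and lists were chosen with earlier results of these data known. The rule for named genes took all members and, from each list, up to 4 called genes in order of adjusted p, of which 1 of the engulfment list is not reported here. Thbs1, Furin, Calu, Rac1, Itgb1, Lrp1, Megf10 and the genes at a few counts were named after their values were seen.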

Additional observations from a re-analysis of the deposited data

How the results depend on the processing

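The calls of the 10 members, 3 higher and 2 lower, were the same under 16 of 17 alternatives: other normalizations, filters and tools, a stricter threshold, the replicate block and each library left out. Tested by edgeR's glmTreat against a 1.5-fold change, 0 were higher and 0 lower, also at an unadjusted p under 0.05. With the replicate number as a block (replicate block) there were again 3 and 2. Same-numbered libraries correlated at 0.101, 0.022 and 0.128 in their deviations from group means, and differently numbered ones at -0.115 to 0.027. Not every library correlated best with its own number. These values do not settle whether the numbers are pairs. The labels do not say that same-numbered libraries share an animal, batch or day, so the main fit used no block. The block raised the genes called overall from 5175 to 5848, and DESeq2 lowered them to 3963. With library totals only, 3183 of all genes were called higher and 2029 lower, against 2682 and 2493.

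The sign of 2 members near 0 turned. Mertk had a log2 fold change of 0.015 with library totals only and from -0.22 to 0.11 with each library left out. Itgb3 had 0.029 with library totals only, 0.0065 with no filter on low counts and -0.030 to 0.013 with each library left out. The difference of the Mfge8/Itgav ratio ran from -0.050 to 0.036 with each library left out. The cause was not tested. The 24 to 38 counts of Mertk limit what can be said of it.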
